A study of Homo sapiens with 9 samples.

Results

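The epidermal differentiation complex is a cluster of genes on human chromosome 1 that encode calcium-binding S100 proteins, small proline-rich (SPRR) proteins, late cornified envelope (LCE) proteins and large S100-fused proteins such as filaggrin. Its members were taken by position alone, as all protein-coding genes of the deposited table on chromosome 1 that start from 151982915, the start of S100A10, to 153633982, the start of CHTOP (GRCh38). This gave 65 genes of 58735 in the table, with 1651 kb between the first start and the last. By family they were 17 S100 genes, 7 S100-fused genes, 11 SPRR genes, 18 LCE genes and 12 others.

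Expression was measured by bulk RNA sequencing in 9 cultures of FaDu, an established human cell line from a squamous carcinoma of the hypopharynx, grown in medium with fetal bovine serum. By genotype the labels give 3 libraries as AMIGO2 knockdown plus CAPN2 overexpression, 3 as AMIGO2 knockdown and 3 as wild-type normal control, with no other treatment in any group. How the knockdown and overexpression were made is not stated in the labels, nor whether one clone or a pool was used. The cultures are labelled as biological replicates, so p-values measure the spread between cultures of 1 line.

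In stratified squamous epithelium the envelope genes of the locus are switched on late, as cells leave the basal layer and build the cornified envelope, a sheet of cross-linked protein under the cell membrane. Involucrin, loricrin, SPRR and LCE proteins are cross-linked into that sheet by transglutaminases, and filaggrin bundles keratin filaments. S100 proteins bind calcium through EF-hand motifs and act on partners such as annexins. S100A7, S100A8 and S100A9 are low in resting epithelium and known for their increase in inflamed and hyperproliferative skin.

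Libraries held between 15158607 and 19737562 counts, and levels are given as CPM, the standard scaling of counts to a common library total, here with TMM (trimmed mean of M values) factors. AMIGO2 went against its label: it stood at 39.0 ± 3.79 CPM in the libraries labelled knockdown plus CAPN2, 27.7 ± 3.41 CPM in those labelled knockdown and 27.6 ± 1.73 CPM in control (SD, n = 3 each). It was 1.41-fold higher under the first label than under the second (adjusted p = 0.0014). CAPN2 stood at 499 ± 1.29, 418 ± 20.3 and 462 ± 13.9 CPM in the same order, 1.19-fold higher with the added label than under the knockdown label (adjusted p = 0.012), a call lost without the first library labelled for CAPN2 (0.0601), without a filter on low counts (0.0871) and after a correction for GC content and length (0.0833). All groups are therefore named by their labels, and no direction given here rests on a measured knockdown. Squamous markers were present, with KRT5 at 1616, 1207 and 4437 CPM and TP63 at 331, 241 and 315 CPM (means in the same order). Of 12 squamous markers 1 rose and 9 fell with the knockdown label against control (83.3% called, against 34.6% of all genes tested). With knockdown plus CAPN2 5 rose and 4 fell against knockdown (75.0%, against 49.2%), and 2 rose and 8 fell against control (83.3%, against 56.3%). Their part in the results for the locus was not tested. In bulk RNA, fewer cells of a type and less RNA per cell cannot be told apart.

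The S100 genes at both ends of the locus carried nearly all of its reads, while the stretch of envelope genes between them was close to silent. The 41 members from CRNN to PGLYRP4, spread over 939.6 kb, held 457 of the 287515 counts of the locus, which is 0.159%. S100A10, S100A11, S100A16, S100A2, S100A14 and S100A6 together took 87.6% to 92.2% of the locus counts in a library. Of the 65 members, 21 had enough counts for testing and 12 of these averaged at least 5 CPM over the 9 libraries. The remaining 44 were low-count genes with 299 counts among them in all 9 libraries, and 20 of the 44 had none.

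**Figure D1:**
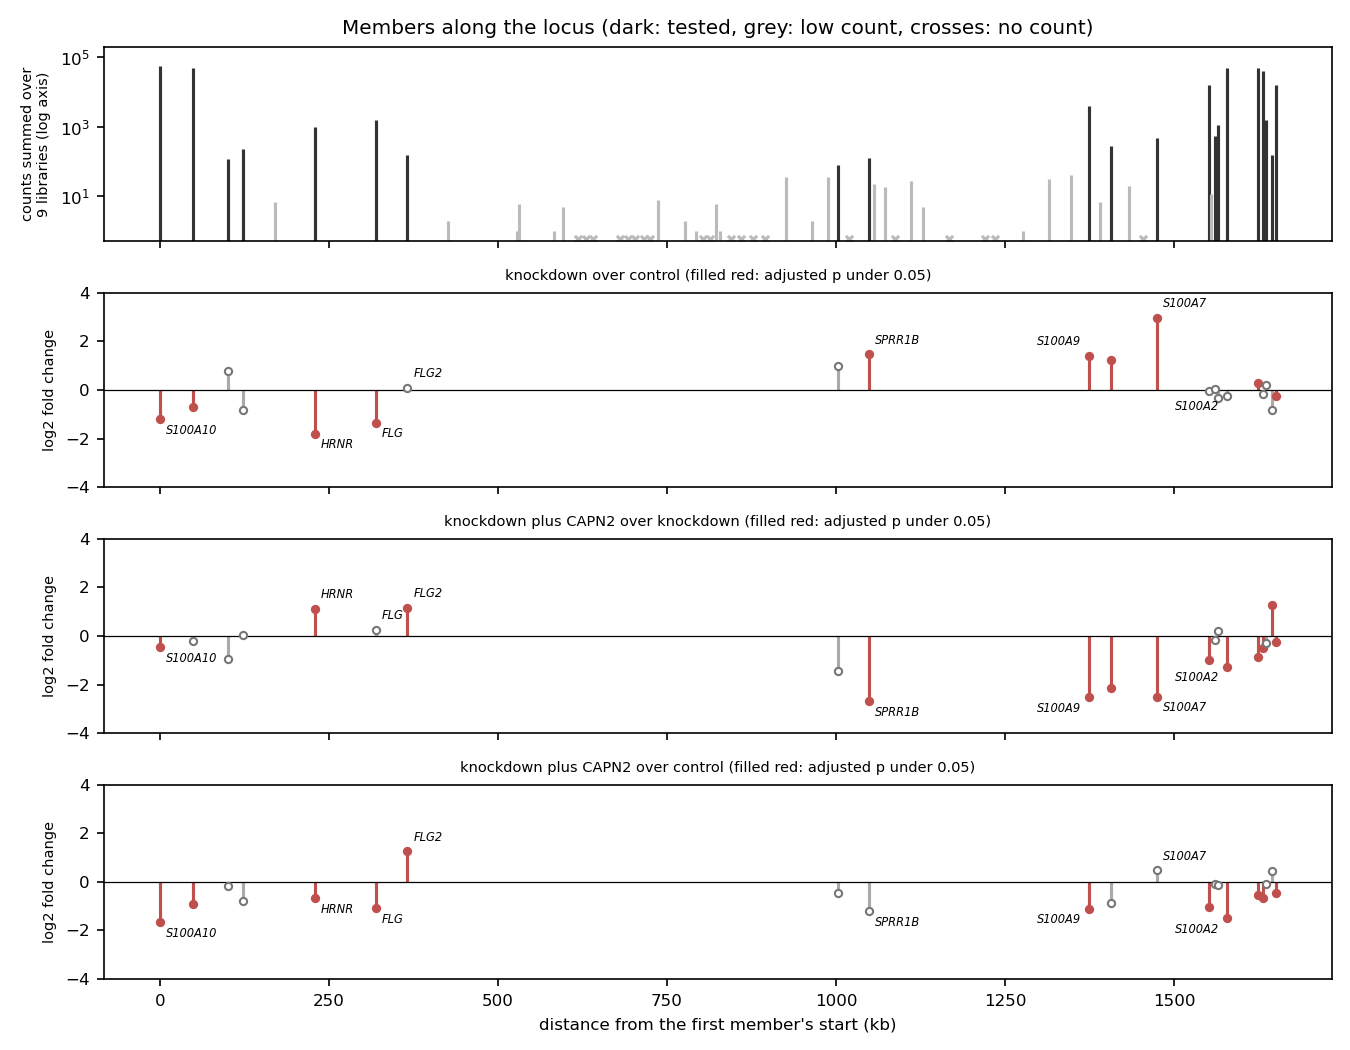
Members along the locus, with distance from the first member's start in kb on the horizontal axis. The top panel shows counts summed over the 9 libraries on a log axis (dark lines tested, grey lines low-count, crosses without a count), and the lower panels show the log2 fold change of the 21 tested members in each comparison, filled red where the adjusted p was under 0.05. The tested genes stood in a group at each end, with only SPRR1A and SPRR1B tested among the 41 members from CRNN to PGLYRP4.

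Summed over its 65 members, the locus took 0.127 ± 0.00823% of all counts in the libraries labelled knockdown plus CAPN2, 0.196 ± 0.033% in those labelled knockdown and 0.243 ± 0.0125% in control (SD, n = 3 each). The 17 S100 genes together stood at 1127 ± 82.4 CPM with knockdown plus CAPN2, 1833 ± 344 CPM with knockdown and 2363 ± 145 CPM in control. The 7 S100-fused genes summed to 17.9 ± 1.48, 12.7 ± 3.70 and 30.4 ± 1.35 CPM in that order. The 11 SPRR genes summed to 0.949 ± 0.138, 3.59 ± 0.866 and 1.59 ± 0.589 CPM. S100 sums were thus lowest under the label of knockdown plus CAPN2, S100-fused sums lowest under the knockdown label, and SPRR sums highest there. No test was made of these sums.

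**Figure D2:**
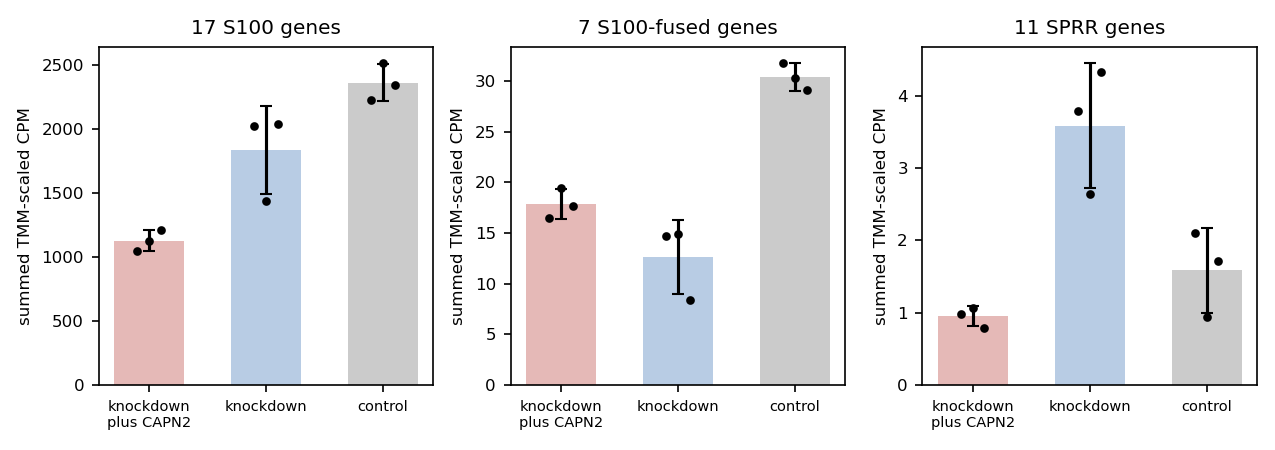
Summed TMM-scaled CPM of the 17 S100, 7 S100-fused and 11 SPRR genes in each group of libraries. Bars are means with SD (n = 3) and points are single libraries. The S100 sum was 1127 CPM in the libraries labelled knockdown plus CAPN2, 1833 CPM in those labelled knockdown and 2363 CPM in control, while the SPRR sum was highest under the knockdown label at 3.59 CPM.

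Comparison of the libraries labelled knockdown with control asks which genes differ with loss of AMIGO2, as the labels state it. Of the 21 tested members 5 were called higher and 5 lower at an adjusted p under 0.05, where 16.0% and 18.5% of the 16812 genes tested were so called. Without the third library labelled knockdown, or without the third control library, 3 were called higher. S100A7, S100A8, S100A9 and S100A16 rose, and S100A10, S100A11, FLG, HRNR and CHTOP fell. SPRR1B, the fifth called higher, passed the filter on low counts only through the libraries labelled knockdown. The comparison of knockdown plus CAPN2 with knockdown called 3 members higher and 10 lower (23.7% and 25.6% of all genes tested). That of knockdown plus CAPN2 with control called 1 higher and 10 lower (27.9% and 28.4% of all genes), and 0 higher without the first library labelled for CAPN2. In either direction 10, 13 and 11 of the 21 were called, where 34.6%, 49.2% and 56.3% of all genes were. For 12, 14 and 13 of the 21 every library of one group lay above every library of the other, as it did for 44.7%, 54.0% and 66.9% of all genes. SPRR1A and SPRR1B were among the 12 and the 14, TCHHL1 among the 14, and SPRR1B among the 10 and the 13 called. All of these passed the filter on low counts only through the libraries labelled knockdown. That favoured their separation in advance, so they add no support. The median log2 fold change of the tested members was -0.05, -0.46 and -0.66 in these 3 comparisons, against -0.01, 0.01 and 0.02 over all genes tested. These medians take in SPRR1A, SPRR1B and TCHHL1, at 0.97, 1.48 and 0.79 in the first comparison and -1.43, -2.67 and -0.95 in the second. Their size therefore rests in part on genes that add no support. Over the 12 members with a mean of at least 5 CPM, which leave these genes out, the medians were -0.23, -0.37 and -0.78. Both comparisons with control share the control libraries, and both with knockdown share those libraries, so their values are set side by side only.

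**Figure D3:**
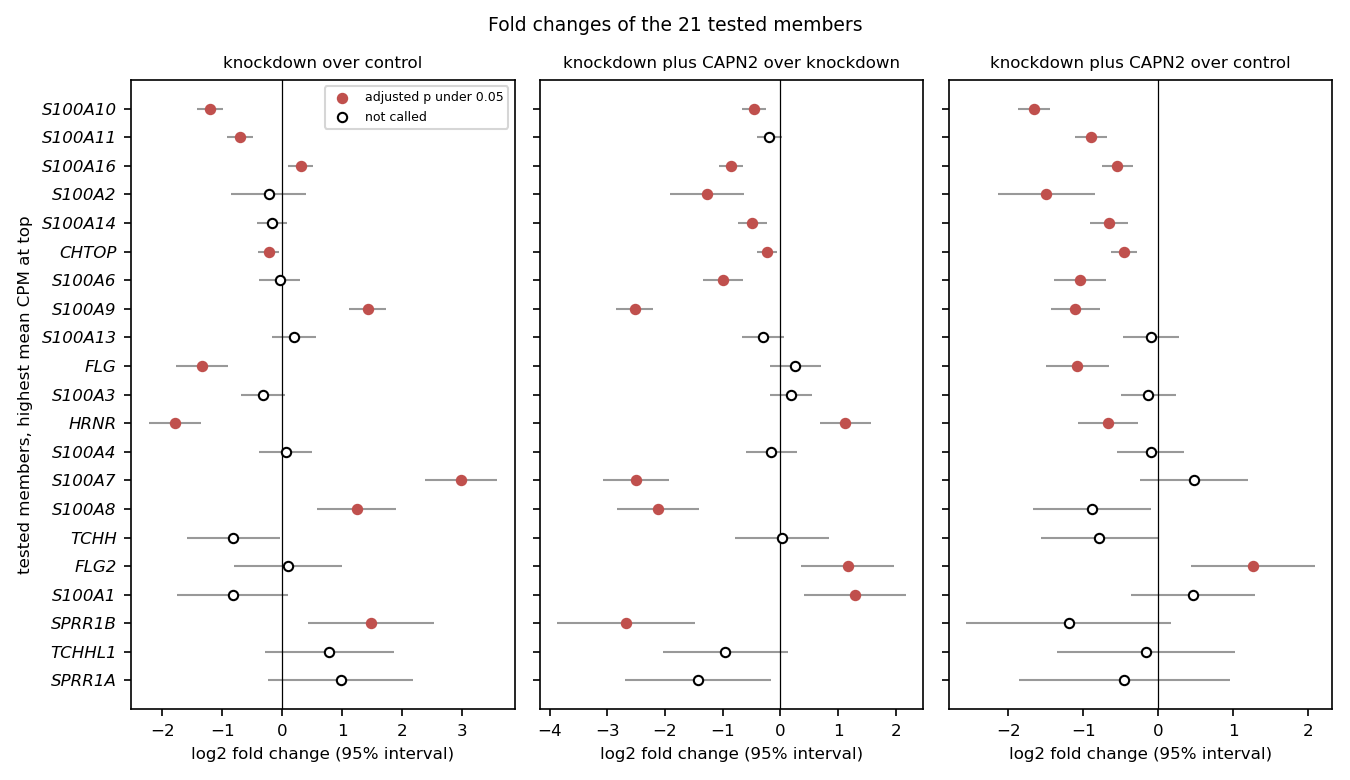
Log2 fold changes of the 21 tested members in the 3 comparisons, from edgeR's quasi-likelihood fit, ordered by mean CPM with the highest at the top. Points are estimates with 95% intervals, filled red where the adjusted p was under 0.05 and open where it was not. S100A7 lay at 2.98 for knockdown over control and at -2.50 for knockdown plus CAPN2 over knockdown, and S100A10 lay below 0 in all 3 panels.

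S100A10 (ENSG00000197747, chr1:151982915-151994390, minus strand), whose protein forms a tetramer with annexin A2 at the plasma membrane, was the member with the highest CPM in control. It had 194, 213 and 218 CPM in the libraries labelled knockdown plus CAPN2, 288, 239 and 329 CPM in those labelled knockdown and 624, 666 and 686 CPM in control. The 3 groups did not overlap, and every library under either knockdown label lay below every control library. Against control it fell 2.31-fold in the libraries labelled knockdown (log2 -1.21 ± 0.103 SE, adjusted p = 6e-08) and 3.16-fold in those labelled knockdown plus CAPN2 (log2 -1.66 ± 0.105, adjusted p = 2.25e-10). Between the 2 knockdown labels it was 1.37-fold lower with CAPN2 (log2 -0.46 ± 0.103, adjusted p = 0.00112).

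S100A11 (ENSG00000163191, chr1:152032506-152047907, minus strand), a partner of annexin A1, had 232, 245 and 255 CPM with knockdown plus CAPN2, 267, 242 and 328 CPM with knockdown and 421, 458 and 479 CPM in control. Libraries under both knockdown labels overlapped each other and stayed below control. The gene fell 1.62-fold with knockdown (log2 -0.70 ± 0.102, adjusted p = 3.57e-05) and 1.86-fold with knockdown plus CAPN2 against control (log2 -0.89 ± 0.103, adjusted p = 5.23e-07). Between the knockdown labels the log2 difference was -0.19 with a 95% interval from -0.41 to 0.02 (adjusted p = 0.129), and without the second library labelled knockdown it passed at -0.321 (adjusted p = 0.00836).

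S100A2, S100A6 and S100A14 shared a pattern in which the label of knockdown plus CAPN2 was lower than both other groups. S100A2 (ENSG00000196754), a nuclear S100 protein and a known target of p63 in basal squamous cells, had 134, 151 and 176 CPM with knockdown plus CAPN2, 509, 235 and 367 CPM with knockdown and 410.5, 520.2 and 368 CPM in control. It fell 2.41-fold against knockdown (log2 -1.27 ± 0.277, adjusted p = 0.00604) and 2.82-fold against control (log2 -1.49 ± 0.278, adjusted p = 0.00216). The libraries labelled knockdown ran from below all control libraries into their range, and their difference from control was -0.23 with a 95% interval from -0.86 to 0.40 (adjusted p = 0.565).

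S100A6 (ENSG00000197956), or calcyclin, had 59.3, 59.6 and 70.2 CPM with knockdown plus CAPN2, 152, 87.5 and 139 CPM with knockdown and 118, 143 and 129 CPM in control. It fell 2.00-fold against knockdown (adjusted p = 0.000122) and 2.06-fold against control (log2 -1.05 ± 0.161, adjusted p = 5.9e-05). All 3 libraries with the added label lay below the other 6. For knockdown over control the log2 difference was -0.05 with a 95% interval from -0.38 to 0.29 (adjusted p = 0.848).

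S100A14 (ENSG00000189334), an S100 protein of epithelial cells, had 176, 196 and 218 CPM with knockdown plus CAPN2, 306, 211 and 309.6 CPM with knockdown and 296, 333 and 300.1 CPM in control. Its second library labelled knockdown fell among those labelled knockdown plus CAPN2, so these 2 groups overlapped. It fell 1.40-fold against knockdown (log2 -0.49 ± 0.122, adjusted p = 0.00271) and 1.57-fold against control (log2 -0.66 ± 0.122, adjusted p = 0.000142). Knockdown over control gave -0.17 with a 95% interval from -0.42 to 0.08 (adjusted p = 0.295).

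S100A16 (ENSG00000188643), the neighbour of S100A14 on the same strand and like it widely expressed in epithelia, stood higher with knockdown than in control. It had 217, 227 and 241 CPM with knockdown plus CAPN2, 408, 354 and 476 CPM with knockdown and 317, 343 and 341 CPM in control, without overlap between the groups. It rose 1.24-fold with knockdown against control (log2 0.31 ± 0.0986, adjusted p = 0.0214). That call was lost without the third library labelled knockdown (0.191, adjusted p = 0.0815) and without the first or the third control library (adjusted p = 0.0986 and 0.0552). With knockdown plus CAPN2 it fell 1.81-fold against knockdown (log2 -0.85 ± 0.0994, adjusted p = 1.06e-06) and 1.46-fold against control (log2 -0.55 ± 0.0991, adjusted p = 0.000107).

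Replicates differed most among the libraries labelled knockdown, with a mean chi-square per gene of 20.9 to 21.5 between libraries against 2.69 to 7.52 within the other 2 groups. The second of them was the lowest of the 3 for 10 of the 13 tested S100 genes. For S100A2, S100A6 and S100A14 the difference from control without that library was 0.05, 0.19 and 0.02 on the log2 scale, with none called.

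**Figure D4:**
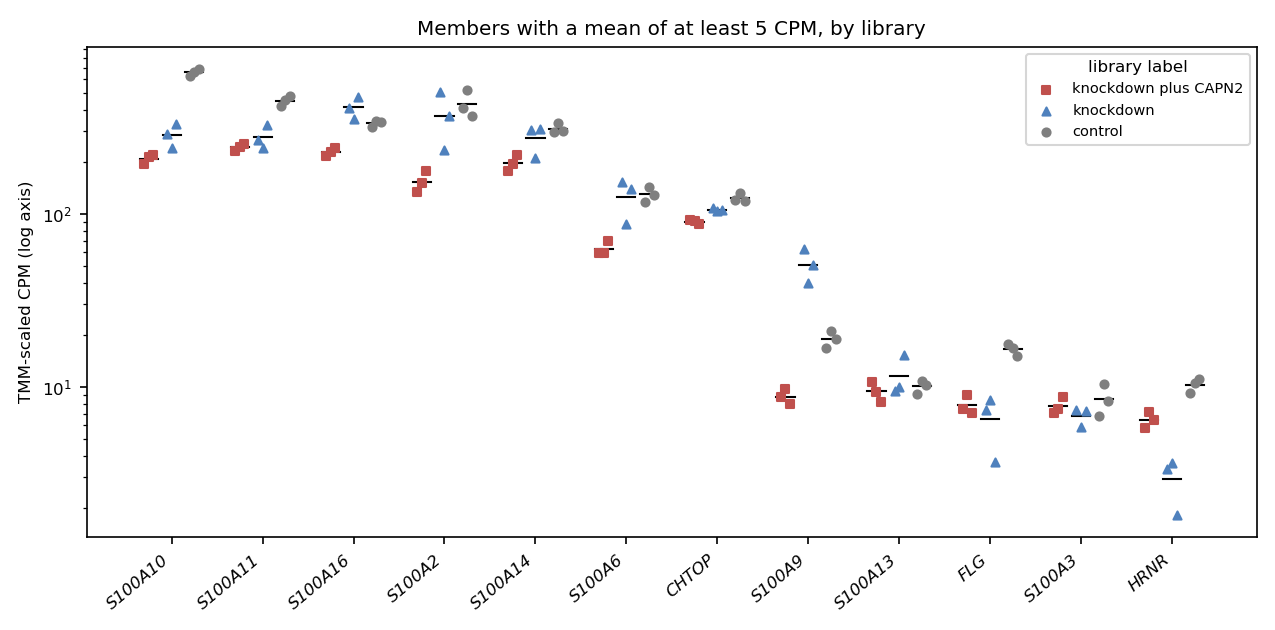
TMM-scaled CPM, on a log axis, of the 12 members with a mean of at least 5 CPM, ordered by mean. Symbols are single libraries and bars group means, for knockdown plus CAPN2, knockdown and control from left to right in each gene. S100A10 was highest in control at 658 CPM, S100A9 highest with knockdown at 50.9 CPM, and HRNR lowest with knockdown at 2.94 CPM.

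The inflammation-linked members S100A7, S100A8 and S100A9 were higher with knockdown than in control and lower with knockdown plus CAPN2 than with knockdown. S100A9 (ENSG00000163220, chr1:153357854-153361027, plus strand) encodes a subunit of calprotectin, a complex that withholds zinc and manganese from microbes. It had 8.70, 9.75 and 7.95 CPM with knockdown plus CAPN2, 62.3, 39.7 and 50.6 CPM with knockdown and 16.7, 21.0 and 19.0 CPM in control. It rose 2.68-fold with knockdown against control (log2 1.42 ± 0.145, adjusted p = 5.72e-07), and the 3 groups did not overlap. With knockdown plus CAPN2 it fell 5.77-fold against knockdown (log2 -2.53 ± 0.155, adjusted p = 2.58e-10) and 2.15-fold against control (log2 -1.10 ± 0.159, adjusted p = 8.25e-06).

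S100A8 (ENSG00000143546, chr1:153390032-153391188, minus strand), the other subunit of calprotectin, was far less abundant than S100A9. In CPM per kb of gene length, S100A8 stood at 0.745 with knockdown plus CAPN2, 3.28 with knockdown and 1.37 in control, and S100A9 at 15.2, 88.2 and 32.8. S100A8 had 0.864, 0.65 and 0.734 CPM with knockdown plus CAPN2, 4.31, 2.14 and 3.46 CPM with knockdown and 1.08, 1.89 and 1.17 CPM in control, again without overlap. It rose 2.36-fold with knockdown against control (log2 1.24 ± 0.316, adjusted p = 0.00498) and fell 4.36-fold with knockdown plus CAPN2 against knockdown (log2 -2.12 ± 0.343, adjusted p = 4.51e-05). Knockdown plus CAPN2 over control gave -0.88 with a 95% interval from -1.67 to -0.10 (adjusted p = 0.0523), and 0.0426 without the first control library.

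S100A7 (ENSG00000143556, chr1:153457744-153460701, minus strand), or psoriasin, an antimicrobial protein of squamous epithelia, had the largest log2 fold change of the tested members for knockdown over control. It had 1.60, 0.945 and 1.04 CPM with knockdown plus CAPN2, 5.42, 6.02 and 9.02 CPM with knockdown and 1.01, 0.707 and 0.861 CPM in control. Libraries labelled knockdown lay above all others, and the other 2 groups overlapped. The gene rose 7.90-fold with knockdown against control (log2 2.98 ± 0.290, adjusted p = 3.17e-07) and fell 5.67-fold with knockdown plus CAPN2 against knockdown (log2 -2.50 ± 0.274, adjusted p = 4.87e-07). Knockdown plus CAPN2 over control gave 0.48 with a 95% interval from -0.25 to 1.20 (adjusted p = 0.254). Its near-identical neighbour S100A7A was a low-count gene with 2 counts in the libraries labelled knockdown plus CAPN2, 17 in those labelled knockdown and 1 in control. With both genes and the uncounted S100A7L2 summed to 1 feature the log2 fold changes were 3.01, -2.52 and 0.49.

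SPRR1B (ENSG00000169469, chr1:153031202-153032900, plus strand), or cornifin B, is cross-linked into the envelope and known as a marker of squamous differentiation in airway cells. It had 3, 1 and 8 counts with knockdown plus CAPN2, 28, 18 and 39 counts with knockdown and 13, 7 and 7 counts in control, or 0.245 ± 0.221, 1.60 ± 0.695 and 0.574 ± 0.265 CPM. The libraries labelled knockdown lay above all others. The test needed 3 libraries at the equivalent of 10 counts, and SPRR1B had them in 3 libraries labelled knockdown and 1 control library. It thus entered the test through the group where it is high, and its calls add no support. In the fit it stood 2.78-fold higher with knockdown than in control (log2 1.48 ± 0.50, adjusted p = 0.0277), and that call was lost without the first (adjusted p = 0.0553) or the third library labelled knockdown (0.141) and without the second (0.116) or the third control library (0.106). With knockdown plus CAPN2 against knockdown it stood 6.38-fold lower (log2 -2.67 ± 0.570, adjusted p = 0.000694), with a log2 fold change of -3.64 without the third library labelled knockdown plus CAPN2. For knockdown plus CAPN2 over control the value was -1.20 with an interval from -2.57 to 0.17 (adjusted p = 0.128), and without that same library it passed at -2.17 (adjusted p = 0.0295).

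SPRR1A, its paralog, averaged 0.301, 0.828 and 0.421 CPM with knockdown plus CAPN2, knockdown and control. It reached the count minimum in the libraries labelled knockdown alone, so its entry into the test already favoured a higher level there. Its log2 difference was 0.97 (95% interval -0.23 to 2.18, adjusted p = 0.204) for knockdown over control and -1.43 (-2.69 to -0.17, adjusted p = 0.0566) for knockdown plus CAPN2 over knockdown.

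S100A8 and S100A9 are also abundant in myeloid cells. Of 12 myeloid markers 3 were tested, and the summed level of the 12 ran from 11.0 to 15.1 CPM with knockdown plus CAPN2, 22.5 to 28.4 CPM with knockdown and 18.3 to 22.8 CPM in control. CD14 made up most of it, at 7.33, 22.5 and 16.0 CPM. CSF3R, ELANE and TYROBP had no count in any library and PTPRC had 4 in all 9. CD14 was 1.40-fold higher with knockdown than in control (adjusted p = 0.0214), although the libraries of those groups overlapped. It was 3.06-fold lower with knockdown plus CAPN2 than with knockdown (adjusted p = 2.74e-07). ITGAM went the other way, 2.14-fold lower (adjusted p = 0.0227) and 2.27-fold higher (adjusted p = 0.00966), and ITGAX was 1.69-fold higher with knockdown plus CAPN2 than with knockdown (adjusted p = 0.00774). The part of these markers in the S100A8 and S100A9 results was not tested.

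The start regions of S100A9, S100A8 and S100A7, and of HRNR, which differed in the opposite direction, are shown because their levels moved with the labels. SPRR1B entered the test through the group where it is high and adds no support. Its start region is shown beside these. Each is 250 bases before to 50 bases after the RefSeq start (GRCh38.p14), read 5′ to 3′ on the gene's strand. S100A9 is chr1:153357604-153357903 (plus), S100A8 is chr1:153391139-153391438 (minus), S100A7 is chr1:153460602-153460901 (minus), SPRR1B is chr1:153030953-153031252 (plus) and HRNR is chr1:152224144-152224443 (minus). Capitals mark matches on either strand to the AP-1 motif TGANTCA, the C/EBP-ATF composite motif TGATGNAA or the TATA motif TATAAA.
S100A9: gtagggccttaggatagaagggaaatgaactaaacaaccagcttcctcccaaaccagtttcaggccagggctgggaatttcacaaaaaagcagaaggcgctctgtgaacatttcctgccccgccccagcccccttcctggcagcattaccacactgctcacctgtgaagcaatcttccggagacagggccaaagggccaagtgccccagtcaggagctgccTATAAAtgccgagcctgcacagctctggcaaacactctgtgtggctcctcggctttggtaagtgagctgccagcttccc
S100A8: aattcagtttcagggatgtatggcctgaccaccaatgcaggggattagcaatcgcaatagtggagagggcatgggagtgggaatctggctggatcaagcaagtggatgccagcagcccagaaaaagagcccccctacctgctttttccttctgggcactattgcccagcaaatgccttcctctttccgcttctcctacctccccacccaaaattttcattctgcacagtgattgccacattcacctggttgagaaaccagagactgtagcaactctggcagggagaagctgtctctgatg
S100A7: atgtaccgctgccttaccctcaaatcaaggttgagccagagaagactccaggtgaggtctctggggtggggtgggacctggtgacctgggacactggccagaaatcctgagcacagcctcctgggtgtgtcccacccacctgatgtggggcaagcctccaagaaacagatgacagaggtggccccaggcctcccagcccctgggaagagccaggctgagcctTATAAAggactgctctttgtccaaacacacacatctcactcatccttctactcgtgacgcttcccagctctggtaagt
SPRR1B: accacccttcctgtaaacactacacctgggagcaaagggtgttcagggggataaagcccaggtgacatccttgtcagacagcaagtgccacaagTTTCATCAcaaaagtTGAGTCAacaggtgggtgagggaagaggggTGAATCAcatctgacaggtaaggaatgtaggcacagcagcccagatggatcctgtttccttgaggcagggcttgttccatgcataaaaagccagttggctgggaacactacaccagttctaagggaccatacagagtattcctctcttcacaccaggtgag
HRNR: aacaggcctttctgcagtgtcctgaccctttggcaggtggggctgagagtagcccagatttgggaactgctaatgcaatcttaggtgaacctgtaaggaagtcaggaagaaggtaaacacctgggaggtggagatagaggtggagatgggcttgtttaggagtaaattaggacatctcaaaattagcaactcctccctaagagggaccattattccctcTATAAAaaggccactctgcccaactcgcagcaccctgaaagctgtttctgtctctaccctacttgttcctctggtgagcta

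SPRR1B held 2 AP-1 matches and 1 C/EBP-ATF match in this window, S100A9, S100A7 and HRNR each held a TATA match, and S100A8 held no match to any of the 3 motifs. RefSeq start regions were found for 57 of the 65 members. AP-1 matches were present in 18 of the 57, or 31.6%, against 7.71% of all 35116 start regions of this length in the table. TATA matches were present in 29 of them, or 50.9%, against 11.5%. C/EBP-ATF matches were present in 3, or 5.26%, against 3.62%. Grainyhead-like matches (ACCNGTT) were present in 11, or 19.3%, against 6.46%, and C/EBP matches (TTNCNNNAA) in 21, or 36.8%, against 33.9%. The C/EBP and C/EBP-ATF patterns can match the same bases. Genes of 1 family can hold the same match, as with AP-1 at -197 from the start of SPRR2A and -196 from that of SPRR2F. The 57 start regions are therefore not independent of one another, and no test was made of these shares. Among tested members AP-1 matches lay in the start regions of TCHHL1, TCHH, FLG, FLG2, SPRR1A, SPRR1B, S100A3 and S100A2, genes that did not share 1 direction of change.

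The S100-fused genes encode very large, repeat-rich proteins that are processed in the granular layer of skin. HRNR (hornerin, ENSG00000197915, chr1:152212082-152224193, minus strand) had 5.80, 7.15 and 6.49 CPM with knockdown plus CAPN2, 3.38, 3.63 and 1.82 CPM with knockdown and 9.27, 10.5 and 11.1 CPM in control. The 3 groups did not overlap. HRNR fell 3.47-fold with knockdown against control (log2 -1.80 ± 0.207, adjusted p = 2.66e-06) and 1.59-fold with knockdown plus CAPN2 against control (log2 -0.67 ± 0.192, adjusted p = 0.00605). It was 2.19-fold higher with knockdown plus CAPN2 than with knockdown (log2 1.13 ± 0.212, adjusted p = 0.000217).

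FLG (filaggrin, ENSG00000143631, chr1:152302175-152325203, minus strand) had 7.47, 8.98 and 7.04 CPM with knockdown plus CAPN2, 7.40, 8.41 and 3.69 CPM with knockdown and 17.8, 16.9 and 15.1 CPM in control. All 6 libraries under a knockdown label lay below the 3 control libraries. It fell 2.53-fold with knockdown (log2 -1.34 ± 0.204, adjusted p = 5.73e-05) and 2.11-fold with knockdown plus CAPN2 against control (log2 -1.08 ± 0.203, adjusted p = 0.000155). Between the knockdown labels the difference was 0.26 with a 95% interval from -0.19 to 0.71 (adjusted p = 0.331). FLG shares 704 exon bases with FLG-AS1 on the other strand, which had 536 counts against 1541 for FLG, so some of its reads could belong to that transcript. For both HRNR and FLG the third library labelled knockdown was the lowest of all 9.

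FLG2 (filaggrin-2), a low-level member of the same family, stood at 2.10, 1.12 and 1.90 CPM with knockdown plus CAPN2, 1.05, 0.747 and 0.469 CPM with knockdown and 0.609, 0.825 and 0.677 CPM in control. Libraries labelled knockdown plus CAPN2 lay above the other 6. The gene was 2.24-fold higher than with knockdown (log2 1.17 ± 0.385, adjusted p = 0.0171) and 2.40-fold higher than in control (log2 1.26 ± 0.396, adjusted p = 0.0108). With the first library labelled for CAPN2 left out the calls were lost at adjusted p = 0.0946 and 0.0592, and the first was also lost without the third library labelled knockdown plus CAPN2 (0.0622) or the third labelled knockdown alone (0.0738).

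TCHH, which encodes trichohyalin of the hair follicle inner root sheath, averaged 1.24, 1.23 and 2.17 CPM with knockdown plus CAPN2, knockdown and control. Its log2 difference was -0.82 (95% interval -1.59 to -0.04, adjusted p = 0.0956) for knockdown over control. It was -0.79 (-1.57 to -0.01, adjusted p = 0.0803) for knockdown plus CAPN2 over control and passed without the second library labelled for CAPN2 (-1.13, adjusted p = 0.0343). TCHHL1 averaged 0.568, 1.10 and 0.652 CPM and was called in none of the 3 comparisons (adjusted p from 0.139 to 0.823), though it passed for knockdown over control without the first control library (1.85, adjusted p = 0.0207). It reached the count minimum in 3 libraries labelled knockdown, 1 control library and 1 library labelled knockdown plus CAPN2. Like SPRR1B, it entered the test through the group where it is high, so that pass adds no support. RPTN and CRNN, the other fused genes, were low-count, with 7 and 2 counts in all.

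**Figure D5:**
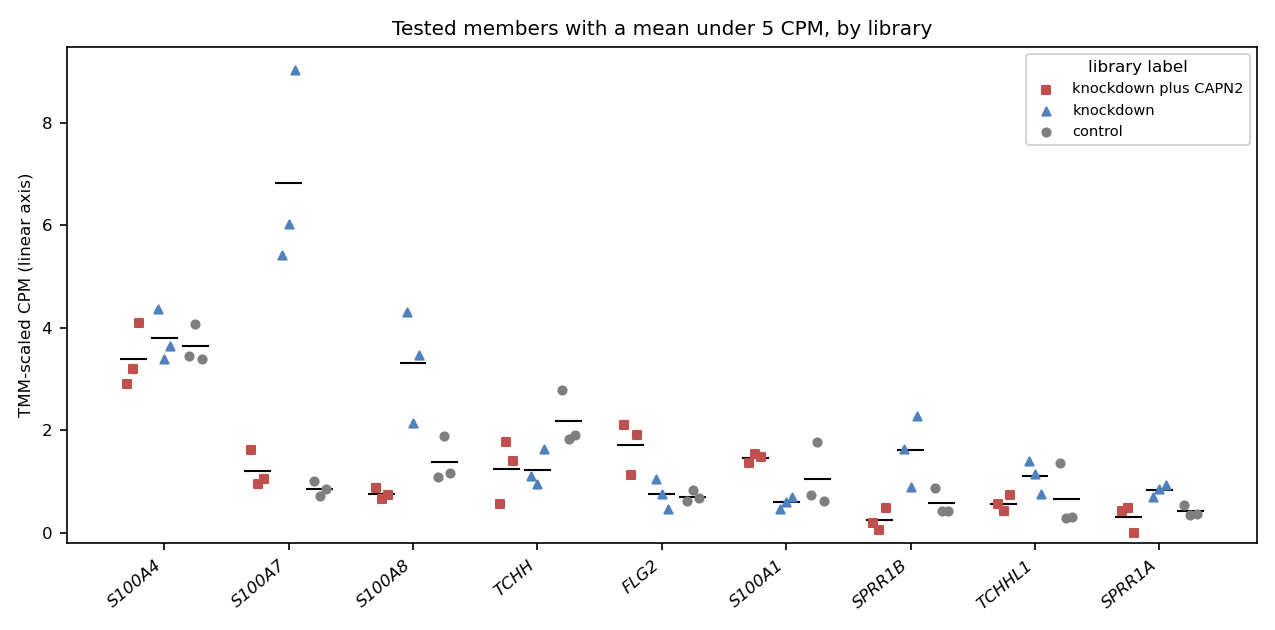
TMM-scaled CPM, on a linear axis, of the 9 tested members with a mean under 5 CPM. Symbols are single libraries and bars group means, for knockdown plus CAPN2, knockdown and control from left to right in each gene. The libraries labelled knockdown lay above the others for S100A7 and S100A8, and those labelled knockdown plus CAPN2 for FLG2. SPRR1A, SPRR1B and TCHHL1 are shown only because their counts in the libraries labelled knockdown passed the filter.

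S100A13, S100A3 and S100A4 were not called in any comparison. S100A13, a protein involved in the release of fibroblast growth factor 1, had 10.7, 9.39 and 8.20 CPM with knockdown plus CAPN2, 9.50, 9.95 and 15.4 CPM with knockdown and 9.13, 10.8 and 10.3 CPM in control. S100A3, a protein of hair cuticle, had 7.04, 7.50 and 8.75 CPM, 7.34, 5.87 and 7.27 CPM, and 6.76, 10.4 and 8.30 CPM in the same order of groups. S100A4, known for its link to metastasis and mesenchymal cells, averaged 3.40, 3.80 and 3.63 CPM. Their adjusted p ran from 0.166 to 0.856, and the groups overlapped in every comparison. For S100A4 the 95% intervals of the log2 differences spanned -0.38 to 0.50 for knockdown over control, -0.60 to 0.29 for knockdown plus CAPN2 over knockdown and -0.55 to 0.35 for knockdown plus CAPN2 over control.

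S100A1, mainly a protein of heart and muscle, averaged 1.45, 0.589 and 1.04 CPM and was 2.45-fold higher with knockdown plus CAPN2 than with knockdown (log2 1.29 ± 0.423, adjusted p = 0.0161). The call was lost without the first library labelled knockdown (adjusted p = 0.0584). S100A1 shares 235 exon bases with S100A13 on the other strand, which had 1579 counts against its 155, so its value is uncertain.

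CHTOP, a chromatin and mRNA export factor at the edge of the interval, has no known role in the envelope. It had 91.9, 90.8 and 87.5 CPM with knockdown plus CAPN2, 108, 103 and 105 CPM with knockdown and 120.3, 132 and 119 CPM in control. The 3 groups did not overlap. CHTOP fell 1.37-fold with knockdown plus CAPN2 against control (log2 -0.46 ± 0.0838, adjusted p = 0.00012). The smaller falls with knockdown against control (log2 -0.23 ± 0.0833, adjusted p = 0.0401) and with knockdown plus CAPN2 against knockdown (log2 -0.23 ± 0.0838, adjusted p = 0.029) did not hold with upper-quartile scaling (-0.19 and -0.17, adjusted p = 0.0967 and 0.104). The first was also lost without the second library labelled knockdown (0.129) and without each control library in turn (0.0716, 0.19 and 0.0712). Nor did it hold without a filter on low counts (0.184) or with a stricter filter (0.0606). The second was lost without the second or the third library labelled for CAPN2 (0.0756 and 0.0868). Adjusted p for the 2 falls was 0.0724 and 0.0523 with the replicate number as a block. In fits to only the 2 groups compared it was 0.12 and 0.0654.

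The classical envelope genes were hardly detected in these cells. Of the 18 LCE genes 12 had no count in any library and the other 6 had 15 counts together, of which LCE1C held 6 and LCE3D 5. Loricrin (LOR) had 1 count in all, and SPRR3, SPRR2B, SPRR2G, LELP1, PRR9, SMCP, AL162596.1 and S100A7L2 had none. Per library, 3 counts corresponded to between 0.149 and 0.203 CPM, which limits what an absent count allows and covers counting error only. Whether reads that map to several near-identical genes, as in the LCE family, were counted is not stated. Involucrin (IVL), an early envelope protein, had 7, 17 and 13 counts in the libraries labelled knockdown plus CAPN2, knockdown and control.

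The low-count SPRR genes were SPRR4 with 1, 20 and 14 counts in the same order of groups, SPRR2E with 4, 22 and 1, SPRR2D with 10, 10 and 3, SPRR2A with 3, 7 and 8, SPRR2F with 5 counts in all and SPRR5 with 2. The 6 SPRR2 genes are near-identical, and together they had 6, 6 and 5 counts with knockdown plus CAPN2, 15, 11 and 16 with knockdown and 3, 2 and 9 in control. Even summed they did not reach the count minimum for testing. Of the others, the peptidoglycan recognition genes PGLYRP4 and PGLYRP3 had 40 and 32 counts in all, S100A5 had 12, C1orf68 had 8, S100A12 had 7, CRCT1 had 6 and KPRP had 2. The 44 were left out of the main test, and no fold change is given for them. In a fit without a filter on low counts, which could use 24 of the 44, SPRR2E was called higher with knockdown than in control (adjusted p = 0.0176). In that fit SPRR4 was called lower with knockdown plus CAPN2 than with knockdown (adjusted p = 0.00831) and than in control (adjusted p = 0.0215). No other low-count member was called there, and both genes were singled out after their values were seen.

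Levels per kilobase placed the tested members in a steep order. In control, S100A11 led at 666 CPM per kb, followed by S100A10 at 427, S100A2 at 276, S100A14 at 243, S100A16 at 196 and S100A6 at 134. S100A9 followed at 32.8 and CHTOP at 22.0, and all others were under 10. With knockdown, S100A9 stood at 88.2 and S100A7 at 12.7 CPM per kb, against 1.61 for S100A7 in control. In control HRNR was at 1.07 CPM per kb, TCHH at 0.310 and FLG2 at 0.0771. These levels use the deposited gene length, which counts all annotated exon bases.

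Partners of the cornified envelope encoded elsewhere in the genome did not move in 1 direction. Of the 23 tested genes of a list of 38, 7 rose and 9 fell with knockdown against control, 10 rose and 8 fell with knockdown plus CAPN2 against knockdown, and 8 rose and 7 fell with knockdown plus CAPN2 against control. That is 69.6%, 78.3% and 65.2% called, against 34.6%, 49.2% and 56.3% of all genes tested. Their median log2 fold changes were 0.20, 0.18 and 0.05. PI3, or elafin, a protease inhibitor that is cross-linked into the envelope, stood at 15.4 ± 3.30 CPM with knockdown against 2.66 ± 0.550 CPM in control (5.74-fold higher, adjusted p = 2.18e-08). It stood at 5.19 ± 0.699 CPM with knockdown plus CAPN2, 2.97-fold lower than with knockdown (adjusted p = 1.16e-06).

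ABCA12, a lipid transporter of lamellar granules, stood at 66.2 ± 1.76 CPM with knockdown plus CAPN2, against 25.3 ± 5.17 CPM with knockdown and 17.0 ± 1.18 CPM in control (2.61-fold and 3.90-fold higher, adjusted p = 4.17e-08 and 3.87e-10). CSTA, or cystatin A, stood at 71.3 ± 5.30 CPM with knockdown plus CAPN2 and 34.7 ± 6.37 CPM with knockdown (2.06-fold higher, adjusted p = 5.29e-07), and the protease gene KLK5 was 1.49-fold lower there (adjusted p = 1.21e-05). The mucosal keratin gene KRT13 stood at 10.6 ± 1.51 CPM with knockdown and 28.3 ± 2.52 CPM in control (adjusted p = 7.4e-07), and fell 3.70-fold with knockdown plus CAPN2 against control (adjusted p = 5.56e-09). DSP, or desmoplakin, fell 1.76-fold with knockdown against control (adjusted p = 3.56e-06), and KRT4 fell 1.95-fold with knockdown plus CAPN2 against control (adjusted p = 1.2e-06).

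Among 13 S100 genes elsewhere and S100 partners, 9 were tested. Of these 1 rose and 3 fell with knockdown against control, 3 rose and 1 fell with knockdown plus CAPN2 against knockdown, and 3 rose and 4 fell with knockdown plus CAPN2 against control. That is 44.4%, 44.4% and 77.8% called, against 34.6%, 49.2% and 56.3% of all genes tested. The number called was 7 for knockdown against control without the first library labelled knockdown, and 7 between the knockdown labels after the GC and length correction. ANXA2, the annexin that binds S100A10, stood at 696 ± 9.58 CPM with knockdown plus CAPN2, 768 ± 106 CPM with knockdown and 1026 ± 39.2 CPM in control. It fell 1.34-fold with knockdown against control (adjusted p = 0.00199) and 1.48-fold with knockdown plus CAPN2 against control (adjusted p = 4.87e-05). ANXA1, the annexin that binds S100A11 and a member of the envelope list, moved in the other direction, 1.37-fold higher with knockdown (adjusted p = 0.0007) and 2.22-fold higher with knockdown plus CAPN2 against control (adjusted p = 4.29e-09).

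ANXA6, another annexin, stood at 21.6 ± 1.02 CPM with knockdown plus CAPN2, 4.49 ± 0.699 CPM with knockdown and 2.39 ± 0.0248 CPM in control, and rose in all 3 comparisons (adjusted p from 1.37e-11 to 0.000597). AGER, a receptor for S100 proteins, stood at 13.3 ± 0.908, 4.36 ± 0.847 and 7.66 ± 0.569 CPM. It fell 1.76-fold with knockdown against control (adjusted p = 0.000897) and was 3.07-fold higher with knockdown plus CAPN2 than with knockdown (adjusted p = 1.63e-07). CACYBP, which binds S100A6, fell 2.39-fold with knockdown plus CAPN2 against knockdown (adjusted p = 2.18e-08). TLR4, another receptor of calprotectin, had no count.

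Of 30 transcription regulators of late keratinocyte differentiation, 29 were tested. With knockdown against control 5 rose and 10 fell, among them JUN (1.45-fold higher, adjusted p = 0.000332), PRDM1 (2.77-fold higher, adjusted p = 0.0051), ZNF750 (2.40-fold lower, adjusted p = 6.13e-07) and NOTCH1 (1.84-fold lower, adjusted p = 5.76e-06). With knockdown plus CAPN2 against knockdown 10 rose and 5 fell, with KLF4 2.03-fold and ELF3 1.65-fold higher (adjusted p = 1.94e-07 and 2.07e-06) and OVOL1 2.08-fold and JUND 1.56-fold lower (adjusted p = 7.04e-05 and 0.000551). Against control 7 rose and 10 fell with knockdown plus CAPN2, and 11 were called without the second library labelled for CAPN2 or the second control library. That is 51.7%, 51.7% and 58.6% called in the 3 comparisons, against 34.6%, 49.2% and 56.3% of all genes tested. ZNF750, a repressor of basal genes and an activator of the differentiation program, stood at 9.32 ± 1.06 CPM with knockdown plus CAPN2, 9.96 ± 0.874 CPM with knockdown and 23.9 ± 1.62 CPM in control.

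Protein-coding genes that start within 1000000 bases on either side of the locus served as chromosomal neighbours. Of 64 such genes 51 were tested, and with knockdown against control 4 rose and 14 fell, which is 35.3% called against 34.6% of all genes. With knockdown plus CAPN2 12 rose and 13 fell against knockdown (49.0% against 49.2%), and 6 rose and 21 fell against control (52.9% against 56.3%). Of these neighbours, SLC27A3 fell 2.03-fold with knockdown against control (adjusted p = 3.13e-05), and MLLT11 was 1.52-fold higher (adjusted p = 0.000549). TPM3, a tropomyosin gene, stood at 408 ± 6.06 CPM with knockdown plus CAPN2, against 716 ± 66.7 CPM with knockdown (adjusted p = 3.1e-07). Of the 21 tested members 47.6%, 61.9% and 52.4% were called in these comparisons, and no test was made of the difference from the neighbours or from all genes. The 21 include SPRR1A, SPRR1B and TCHHL1, which passed the filter on low counts only through the libraries labelled knockdown. The first 2 shares count the calls of SPRR1B, which add no support.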

How the data were processed

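RNA of 9 FaDu cultures was analysed in 3 groups of 3, set by the labels. The deposited data are whole-number counts for each gene and library, with gene positions and no normalised value. Build hg19 and the tools featureCounts 1.5.0-p3, HISAT2 2.0.5 and StringTie 1.3.3b are named, without roles, in the submitters' processing notes, but starts and ends in the deposited table equalled those of GENCODE v29 on GRCh38 for 65 of 65 members, so GRCh38 is used. Settings for strand, multiple mapping and overlap are not stated there. Per the labels, the library kit was NEBNext Ultra, which does not mark strand, so overlapping genes on both strands cannot be told apart.

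Counts were fitted in R 4.3.3 with edgeR 4.0.16, after filterByExpr (at least 10 counts, 16812 genes kept) and TMM scaling, as a quasi-likelihood model of 3 groups over all 9 libraries, with Benjamini-Hochberg adjustment over all genes tested and a threshold of 0.05. The fit was tested on simulated data with the same spread set for every group. The libraries labelled knockdown varied more than the others, so that test does not vouch for their calls. SE is the absolute log2 fold change over the square root of F, and intervals are 95%. DESeq2 1.42.0 was an alternative. Among genes outside the locus, up to 2 risen and 2 fallen with the lowest adjusted p were eligible to be named in each comparison, and not all of them are. The members, the gene lists and the alternatives were chosen with earlier results of these data known. The correction for GC content and length was added after seeing the data. Start regions came from RefSeq.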

Additional observations from a re-analysis of the deposited data

How the results depend on the processing

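Over 15 alternatives per comparison, the number of members called ran from 7 to 10 for knockdown over control, 11 to 14 for knockdown plus CAPN2 over knockdown and 10 to 12 for knockdown plus CAPN2 over control. Called higher were 3 to 5 members for knockdown over control and 0 to 1 for knockdown plus CAPN2 over control when 1 library was left out. Of 34 calls, 27 held under every alternative run, and none of the 34 changed sign. The 34 include the calls of SPRR1B, which add no support. Fold changes followed GC content across genes (rho = -0.363, -0.0831 and -0.287 over 16802 genes), and the correction for it ended no member's call. Upper-quartile scaling moved the median of all genes from 0.02 to 0.13 for knockdown plus CAPN2 over control.

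Sign changes touched values that were not called in either fit. After the GC and length correction, knockdown over control gave 0.132 for S100A6 and -0.0865 for AMIGO2, knockdown plus CAPN2 over knockdown gave -0.059 for TCHH and -0.0918 for FLG, and knockdown plus CAPN2 over control gave 0.142 for S100A4, 0.181 for S100A3, 0.167 for S100A13 and -0.0862 for CAPN2. With upper-quartile factors S100A4 and S100A13 lay at 0.00438 and 0.00325 in the last comparison, and without a filter on low counts TCHH lay at -0.00634 for knockdown plus CAPN2 over knockdown. With each library left out in turn, knockdown over control ranged from -0.197 to 0.333 for FLG2, -0.202 to 0.191 for S100A6, -0.0514 to 0.167 for S100A4, -0.525 to 0.0467 for S100A2, -0.262 to 0.0197 for S100A14, -0.0555 to 0.326 for S100A13 and -0.0616 to 0.0904 for AMIGO2. Knockdown plus CAPN2 over knockdown ranged from -0.318 to 0.35 for TCHH and -0.0249 to 0.46 for FLG. Knockdown plus CAPN2 over control ranged from -0.533 to 0.886 for TCHHL1, -0.938 to 0.107 for SPRR1A, -0.26 to 0.00151 for S100A4 and -0.278 to 0.03 for S100A3. The causes were not tested.

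Same-numbered libraries did not deviate together (r from -0.111 to 0.063, and 1 of 9 libraries was most like its own number). With the replicate number as a block, 9, 12 and 11 members were called in the 3 comparisons. Depth limits the 44 low-count members. Without a filter 24 of them could be fitted, and 1 was called in each of the 3 comparisons.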
